A study of Rattus norvegicus with 304 samples.

Results

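The lowest TCDD doses of the series, 0.001, 0.01 and 0.1 µg/kg, were measured in rat liver at 19 h in a resistant and a sensitive strain, and the comparison with corn oil shows which of a panel of transcripts left the corn oil range and at which dose. TCDD (2,3,7,8-tetrachlorodibenzo-p-dioxin) is the most potent of the dioxins. The groups were chosen by their labelled time, dose and strain. They hold 37 of the 150 samples run on the OpenArray, a nanolitre real-time PCR plate, and 38 of the 154 run on the 7900HT, an instrument for standard plate-based real-time PCR, of 304 in the whole series. All were total RNA from the liver of male rats aged 10 to 12 weeks that received TCDD or the corn oil vehicle by oral gavage. On the OpenArray, corn oil at 19 h was represented by 6 samples of Han/Wistar, the resistant strain, and 7 of Long-Evans, the sensitive strain, and each of the 6 low-dose groups by 4. The 7900HT had 7 corn oil samples of each strain and the same 4 per dose. On both instruments 37 samples carry the same titles, so the 7900HT was taken as a second measurement of the same animals and not as an independent experiment.

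The aryl hydrocarbon receptor (AHR) is a cytoplasmic transcription factor that binds TCDD, moves into the nucleus, pairs with ARNT and activates genes with a dioxin response element. In liver the best known of these are the cytochrome P450 genes Cyp1a1 and Cyp1a2, further enzymes of foreign-compound metabolism such as Nqo1, Aldh3a1 and the UDP-glucuronosyltransferases, and the receptor's own repressors Ahrr and Tiparp. Han/Wistar rats carry an altered receptor and survive doses of TCDD that kill Long-Evans rats, although both strains induce the P450 genes.

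The deposited measurement is 1 value for each gene and group, a fold change relative to the same strain's corn oil rats at 19 h, taken here as log2, so that corn oil at 19 h is 0 and 1 unit is a doubling of the ratio. The OpenArray has 49 targets and the 7900HT 39, with 38 on both, and of the possible low-dose values 291 of 294 and 231 of 234 are listed. No value per rat was used, so the spread between rats of a group is not known here. The background was instead the range of the corn oil groups of the same strain, which were sampled at 1.5, 19, 96, 240 and 384 h in Han/Wistar and at 19, 96 and 240 h in Long-Evans. A target was counted as leaving the range when its value lay outside all of these groups and was at least 1 log2 unit from 0. Counts of targets above or below the range follow this rule unless the minimum is said to be left out. A value said to lie above or below all corn oil groups need not reach the minimum. The median width of the range on the OpenArray was 0.53 in Han/Wistar, with 5 groups, and 0.27 in Long-Evans, with 3, so a small shift leaves it more easily in Long-Evans. The corn oil groups at other times differ from the treated groups in time as well as in TCDD, and these cannot be told apart. None of 21 markers of liver cell types was on either panel, so in these samples a change in the share of a cell type and a change in RNA per cell cannot be told apart, and the labelled tissue could not be checked.

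Few targets left the corn oil range at these doses, and 0.1 µg/kg was the first dose at which Cyp1a1 and Cyp1a2 were above it in both strains. In Han/Wistar 1 of 49 OpenArray targets left the range at 0.001 µg/kg (2.04%), 3 of 48 at 0.01 µg/kg (6.25%) and 2 of 48 at 0.1 µg/kg (4.17%). In Long-Evans the counts were 5 of 48 (10.4%), 5 of 49 (10.2%) and 9 of 49 (18.4%). At 1 µg/kg, the next dose of the series, 10 of 49 (20.4%) left it in Han/Wistar and 9 of 49 (18.4%) in Long-Evans. By the 1 log2 minimum alone, 6, 5, 5 and 5 targets passed in Han/Wistar corn oil at 1.5, 96, 240 and 384 h. At the 3 low doses 5, 7 and 4 did, each of 48 or 49. In Long-Evans 5 and 2 passed in corn oil at 96 and 240 h, beside 5, 6 and 10 at the low doses. The direction differed between the doses: the 5 Long-Evans departures at 0.001 µg/kg (10.4%) and the 5 at 0.01 µg/kg (10.2%) were all below the range. Those at 0.001 µg/kg were the 5 targets with the widest Long-Evans corn oil ranges, from 1.36 (Exoc3) to 5.14 (Aldh3a1) log2 units. Of these, Aldh3a1, Cyp1b1, Exoc3 and Scn4b left the range again at 0.01 µg/kg, with Cmkor1 as the other target. With the 1 log2 minimum, upward departures appeared in that strain at 0.1 µg/kg, with 4 upward (8.16%) and 5 downward (10.2%). At 1 µg/kg 7 were upward (14.3%) and 2 downward (4.08%). Over the same 4 doses Han/Wistar had 0, 2 (4.17%), 2 (4.17%) and 5 (10.2%) upward departures and 1 (2.04%), 1 (2.08%), 0 and 5 (10.2%) downward ones.

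**Figure D1:**
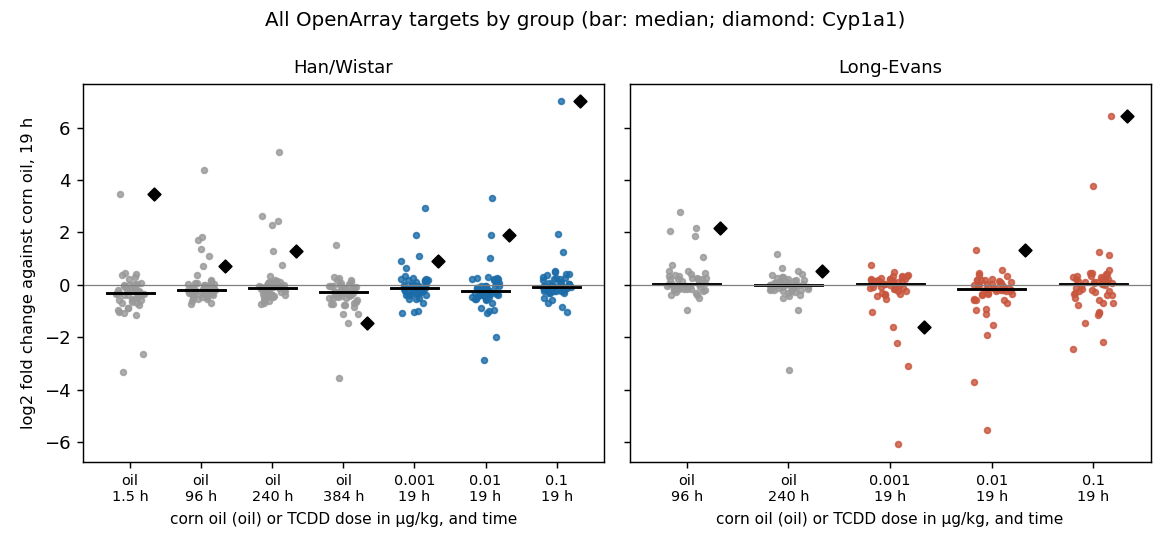
Log2 fold change of every OpenArray target (dots) in each corn oil group of another time (grey) and each low-dose TCDD group (coloured), with the group median as a bar; the black diamond repeats the value of Cyp1a1 beside its group. The group medians of the TCDD groups lie between -0.24 and 0.04, and Cyp1a1 stands apart at 0.1 µg/kg, with 7.02 for Han/Wistar and 6.45 for Long-Evans, but not at 0.001 or 0.01 µg/kg.

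Cyp1a1, the P450 that is the usual marker of AHR activation, had the highest value of any target at 0.1 µg/kg in both strains. It stood at 0.92, 1.91 and 7.02 at 0.001, 0.01 and 0.1 µg/kg for Han/Wistar, and at -1.61, 1.32 and 6.45 for Long-Evans, per the authors' deposited table. Converted from log2, the values at 0.1 µg/kg are 130-fold and 87.5-fold the corn oil group. Its corn oil groups at other times stood at 3.47 (1.5 h), 0.70 (96 h), 1.27 (240 h) and -1.48 (384 h) for Han/Wistar, and at 2.16 (96 h) and 0.51 (240 h) for Long-Evans, per the authors' deposited table. Only the groups at 0.1 µg/kg were therefore above all corn oil groups of their strain, by 3.55 and 4.29 log2 units, and the Long-Evans group at 0.001 µg/kg was below all of them.

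Whether Cyp1a1 had already left the range at 0.01 µg/kg turned on 1 corn oil group in each strain. The Han/Wistar group at 1.5 h held 3 samples. Without this group the highest corn oil value was 1.27 per the authors' deposited table, and 1.91 was above it. Without the Long-Evans group at 96 h it was 0.51 per the authors' deposited table, and 1.32 was above it. Between 0.01 and 0.1 µg/kg Cyp1a1 differed by 5.12 log2 units (Han/Wistar) and 5.13 (Long-Evans), and between 0.1 and 1 µg/kg by 2.43 and 2.21. The values at 1 µg/kg, 9.46 and 8.66, and at 100 µg/kg, 9.99 and 9.47 per the authors' deposited table, were thus within 3.02 log2 units of that at 0.1 µg/kg.

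Cyp1a2, the second hepatic P450 of the family, left the range at the same dose with a far smaller value. It stood at -0.23, -0.05 and 1.26 for Han/Wistar and at -0.24, -0.21 and 1.13 for Long-Evans, per the authors' deposited table, and 1 µg/kg gave 2.82 and 3.15. Its corn oil groups reached from -0.84 to 0.00 for Han/Wistar and from 0.00 to 0.32 for Long-Evans per the authors' deposited table. The groups at 0.1 µg/kg were above all of these, and those at the lower doses were below 0. Nqo1, a quinone reductase, stood at 0.22, -0.47 and 0.53 for Han/Wistar and at 0.75, 0.24 and 1.26 for Long-Evans per the authors' deposited table. It left the range in Long-Evans at 0.1 µg/kg. In Han/Wistar it reached at least 1 log2 unit at 1 µg/kg, where it was 2.52 per the authors' deposited table.

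Ahrr, which encodes the repressor that competes with AHR for ARNT, was listed for 4 of its 6 low-dose groups. It stood at -0.26 and 3.31 at 0.001 and 0.01 µg/kg for Han/Wistar, with no value at 0.1 µg/kg, and at 0.58 and 3.78 at 0.01 and 0.1 µg/kg for Long-Evans, with none at 0.001 µg/kg, per the authors' deposited table. It left the range at 0.01 µg/kg in Han/Wistar and at 0.1 µg/kg in Long-Evans. The Han/Wistar value at 1 µg/kg was 1.53 per the authors' deposited table, lower than at 0.01 µg/kg and inside the corn oil range, which extended up to 2.29. Ahrr was therefore not above the range at every dose from 0.01 µg/kg upward in Han/Wistar.

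The promoters of Cyp1a2, Nqo1 and Ahrr, which left the range upward here and have an entry in the RefSeq table of the rat assembly GRCr8, are shown from 250 bases before to 50 bases after the annotated start, 5′ to 3′ on the gene's strand. The letters in capitals mark the core of the dioxin response element, GCGTG, or its reverse complement CACGC. Cyp1a2 lies at chr8:66978100-66978399 on the minus strand, Nqo1 at chr19:52220218-52220517 on the minus strand, and Ahrr at chr1:30821969-30822268 on the plus strand. The files name no build, and these positions are those of GRCr8.
Ahrr: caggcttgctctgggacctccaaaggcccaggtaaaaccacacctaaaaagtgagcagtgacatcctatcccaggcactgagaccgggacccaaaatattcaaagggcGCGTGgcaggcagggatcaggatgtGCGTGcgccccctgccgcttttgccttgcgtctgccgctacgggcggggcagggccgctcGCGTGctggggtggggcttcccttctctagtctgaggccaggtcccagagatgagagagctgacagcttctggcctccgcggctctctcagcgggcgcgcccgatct
Nqo1: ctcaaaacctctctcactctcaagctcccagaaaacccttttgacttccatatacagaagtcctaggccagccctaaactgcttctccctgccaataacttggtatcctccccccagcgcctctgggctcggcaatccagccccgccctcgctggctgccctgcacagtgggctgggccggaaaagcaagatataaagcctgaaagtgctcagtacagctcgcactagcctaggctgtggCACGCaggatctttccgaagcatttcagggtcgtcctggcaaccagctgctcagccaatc
Cyp1a2: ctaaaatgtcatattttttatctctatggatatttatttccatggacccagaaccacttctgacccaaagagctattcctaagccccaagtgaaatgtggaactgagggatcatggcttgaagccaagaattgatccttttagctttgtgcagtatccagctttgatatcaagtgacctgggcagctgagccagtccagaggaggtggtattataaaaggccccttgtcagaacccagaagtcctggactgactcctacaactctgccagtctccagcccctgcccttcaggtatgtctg
The core occurred 3 times in the window of Ahrr, once in that of Nqo1 and 0 times in that of Cyp1a2. On either strand it was present in 29.7% of all 33469 windows of this length and in 19 of the 42 OpenArray targets with a window (45.2%). The letters GCGTG are a description of these 300 bases only.

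The remaining drug-metabolism genes of the AHR battery did not show this pattern. Aldh3a1, an aldehyde dehydrogenase, stood at 1.10, -2.86 and -0.51 for Han/Wistar and at -6.10, -5.55 and -2.46 for Long-Evans per the authors' deposited table, against 5.45 and 3.57 at 1 µg/kg. Cyp1b1, a P450 that is scarce in untreated liver, stood at 2.93, -0.90 and 1.95 for Han/Wistar and at -3.11, -3.72 and -2.17 for Long-Evans per the authors' deposited table, against 4.53 and 3.81 at 1 µg/kg. Both left the Long-Evans range downward, Aldh3a1 at 0.001 and 0.01 µg/kg and Cyp1b1 at all 3 doses, and both were above 3 log2 units at 1 µg/kg in that strain. These genes also had the widest corn oil ranges on the OpenArray: Aldh3a1 spanned 6.17 log2 units over the corn oil groups for Han/Wistar and 5.14 for Long-Evans, and Cyp1b1 6.15 and 3.73. In Han/Wistar all 6 low-dose values of these 2 genes were inside that range.

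Tiparp, a member of the poly(ADP-ribose) polymerase family that represses AHR, stood at 0.17, 0.17 and 0.07 for Han/Wistar and at 0.26, 0.44 and 0.30 for Long-Evans per the authors' deposited table. All of these were inside the corn oil range, and the values at 1 µg/kg were 1.07 and 0.92 per the authors' deposited table. Nfe2l2, the transcription factor NRF2 that drives Nqo1, stood at 0.50, 0.33 and 0.32 for Long-Evans per the authors' deposited table, above its corn oil groups at every dose but under 1 log2 unit. Ugt1a1, a UDP-glucuronosyltransferase, and Fmo1, a flavin monooxygenase, lay between -0.55 and -0.01 in the 6 groups per the authors' deposited table. Inmt, a methyltransferase, lay between -0.45 and 0.16 per the authors' deposited table. In Han/Wistar its values of -0.40, -0.45 and -0.20 were below all corn oil groups per the authors' deposited table, and at 1 µg/kg it left the range at -1.24.

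Exoc3 encodes a subunit of the exocyst, which tethers secretory vesicles, and is a near neighbour of Ahrr in RefSeq with 1 protein-coding gene between them. It stood at -1.06, -2.01 and -1.05 for Han/Wistar and at -2.23, -1.91 and -1.47 for Long-Evans per the authors' deposited table. All 6 values were below -1, and the 3 Long-Evans values were below every corn oil group, the lowest of which was -0.97 per the authors' deposited table. In Han/Wistar none was, because the corn oil group at 1.5 h stood at -2.66 per the authors' deposited table. Without that group the Han/Wistar counts would include Exoc3 at all 3 doses.

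The AHR battery list held 13 genes, of which all but Ugt1a6 were measured. These 12 were Cyp1a1, Cyp1a2, Cyp1b1, Ahrr, Tiparp, Nqo1, Aldh3a1, Ugt1a1, Nfe2l2, Inmt, Fmo1 and Exoc3. Exoc3 is also counted under trafficking below. With the 1 log2 minimum, 0 of the 12 left the Han/Wistar range upward at 0.001 µg/kg. The upward counts were 1 of 12 at 0.01 µg/kg, 2 of 11 at 0.1 µg/kg and 5 of 12 at 1 µg/kg. The shares over all targets were 0%, 4.17%, 4.17% and 10.2%. The downward counts were 0, 0, 0 and 1, beside 2.04%, 2.08%, 0% and 10.2%. In Long-Evans the upward counts by this rule were 0 of 11, 0 of 12, 4 of 12 and 7 of 12, beside 0%, 0%, 8.16% and 14.3% over all targets. The downward counts were 4, 3, 2 and 0, beside 10.4%, 10.2%, 10.2% and 4.08%. Exoc3 was among the downward members at each low dose. The median of the battery was -0.14, -0.25 and 0.07 in Han/Wistar, beside -0.13, -0.24 and -0.10 over all targets. In Long-Evans it was -0.24, -0.02 and 0.22, beside 0.04, -0.17 and 0.04. At 1 µg/kg it was 1.30 and 1.66, beside 0.09 and 0.21. Of the AHR signalling list, Ahr itself stood at -0.54, -0.68 and -0.31 for Han/Wistar, inside the range, and at -0.36, -0.70 and -0.78 for Long-Evans, below all corn oil groups, per the authors' deposited table. On the 7900HT Ahr stood at -2.91, -2.22 and -1.04 for Han/Wistar, inside the range, and at 1.62, -0.76 and -1.32 for Long-Evans. There it left the Long-Evans range upward at 0.001 µg/kg and downward at 0.1 µg/kg. Arnt was measured on the 7900HT only. It stood at -2.13, -1.64 and -0.36 for Han/Wistar and at 0.68, -0.04 and -0.34 for Long-Evans per the authors' deposited table. In Han/Wistar it left the range downward at 0.001 and 0.01 µg/kg, where the median over all 7900HT targets was -1.12 and -1.03.

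**Figure D2:**
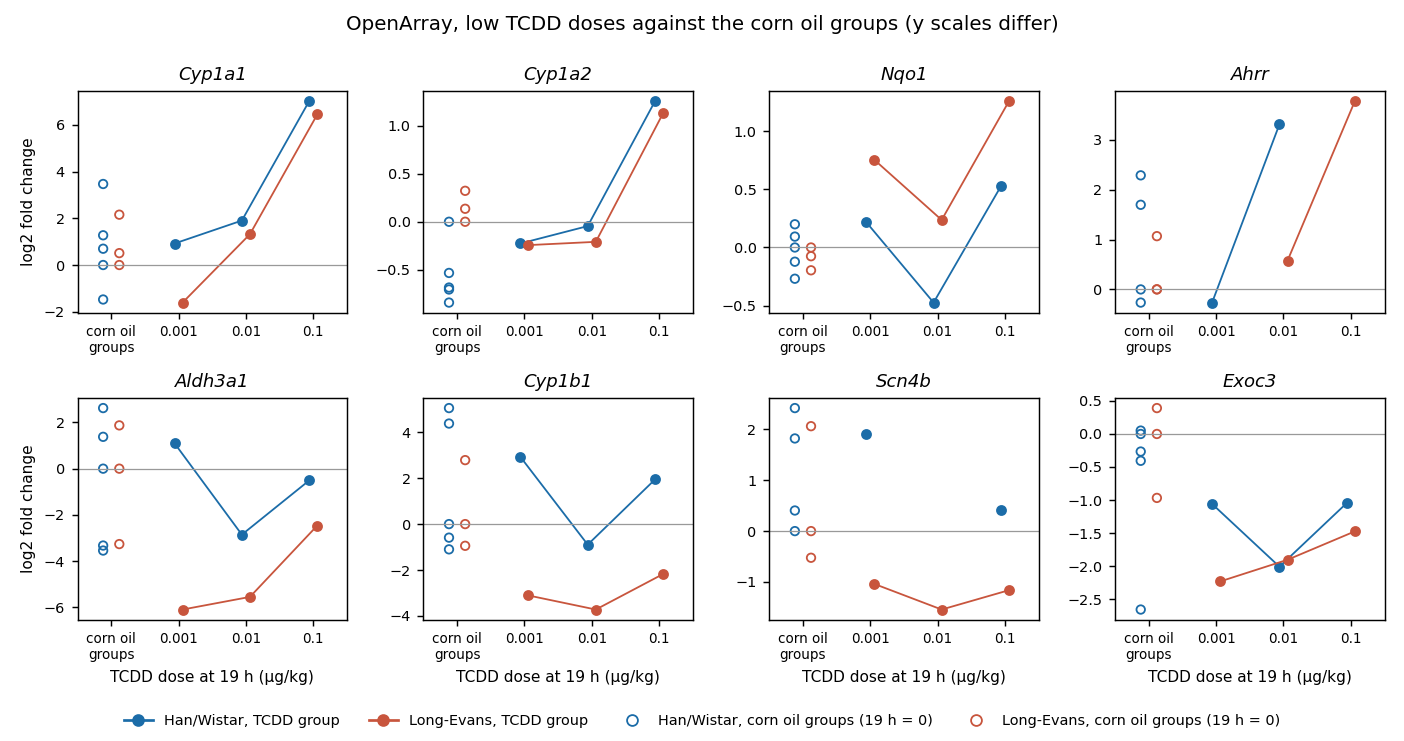
OpenArray log2 fold change relative to the strain's own 19 h corn oil group (y axis, own scale in each panel) for 8 targets at the low doses (filled points, joined by lines) beside all corn oil groups of the strain (open points). Cyp1a1, Cyp1a2 and Ahrr clear the open points at 0.1 µg/kg wherever they have a value, whereas the Long-Evans values of Aldh3a1, Cyp1b1, Scn4b and Exoc3 lie mostly below them.

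Outside the AHR battery, Scn4b, Mug1, Bbs2, Cmkor1, Cyp2s1 and Psmb4 left the range at a low dose, and of these Scn4b did so at all 3 doses, in Long-Evans. Scn4b, a beta subunit of voltage-gated sodium channels, stood at -1.04, -1.54 and -1.16 for Long-Evans, below all corn oil groups, and at 1.91 and 0.41 for Han/Wistar (0.001 and 0.1 µg/kg), inside the range, per the authors' deposited table. Mug1, which encodes murinoglobulin, a protease inhibitor that the liver secretes into plasma, stood at -1.05, -0.97 and -0.58 for Han/Wistar and at 0.21, -0.57 and -1.02 for Long-Evans per the authors' deposited table. It left the range at 0.001 µg/kg in Han/Wistar, as the only target there, and at 0.1 µg/kg in Long-Evans. With each group centred on its median or mean the Han/Wistar count at 0.001 µg/kg was 0.

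Bbs2, a component of the ciliary BBSome, was at -1.01 for Han/Wistar at 0.01 µg/kg per the authors' deposited table. Cmkor1, renamed Ackr3, a receptor that scavenges chemokines, was at -1.10 for Long-Evans at the same dose per the authors' deposited table. Cyp2s1, a further AHR-responsive P450, was at -0.36, -0.95 and -1.06 for Long-Evans per the authors' deposited table and left the range at 0.1 µg/kg. These values lay between -1.10 and -1.01, just past the minimum, and Bbs2 and Cmkor1 no longer passed when groups were centred on their median or mean. Counted over both strains, 22 of the 25 departures were called again with median centring and 21 with mean centring. At a minimum of 2 log2 units Han/Wistar had 0, 1 and 1 departures and Long-Evans 3, 2 and 3.

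**Figure D3:**
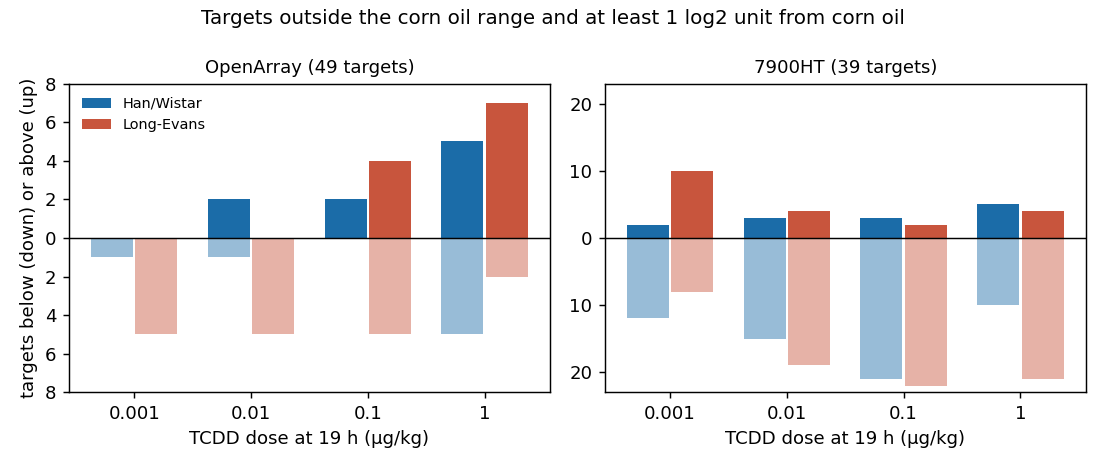
Number of targets outside the corn oil range and at least 1 log2 unit from corn oil at 19 h (y axis; bars up, above the range; pale bars down, below it) by dose (x axis), strain and instrument. On the OpenArray, upward departures numbered 0 at 0.001 µg/kg, 2 (Han/Wistar) and 4 (Long-Evans) at 0.1 µg/kg, and 5 and 7 at 1 µg/kg. On the 7900HT, downward departures numbered 21 (Han/Wistar) and 22 (Long-Evans) at 0.1 µg/kg.

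Without the 1 log2 minimum, more targets were outside the range. In Han/Wistar 10 of 49 (20.4%), 16 of 48 (33.3%) and 16 of 48 (33.3%) were outside it at the 3 doses, and 32 of 49 (65.3%) at 1 µg/kg. In Long-Evans, with its 3 corn oil groups, 35 of 48 (72.9%), 36 of 49 (73.5%) and 37 of 49 (75.5%) were, and 43 of 49 (87.8%) at 1 µg/kg. At the 3 low doses 8, 7 and 13 Han/Wistar targets were above the range and 2, 9 and 3 below it. In Long-Evans 18, 9 and 19 were above it and 17, 27 and 18 below it. Of the targets with a value at all 3 doses, 24 of 47 were inside the range at each of them in Han/Wistar, and 1 of 48 in Long-Evans.

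Some targets were on the same side of the range at all 3 doses, among them the Long-Evans departures of Cyp1b1, Exoc3 and Scn4b at 1 log2 unit or more. Above every corn oil group at all 3 doses were 4 of 47 targets in Han/Wistar (8.51%; Mawbp, Pmm1, Pomp and Psmb4) and 5 of 48 in Long-Evans (10.4%; Mawbp, Nfe2l2, Nqo1, Pomp and Psmb4). Below every corn oil group at all 3 doses were 2 of 47 in Han/Wistar (4.26%; Inmt and Mug1) and 9 of 48 in Long-Evans (18.8%; Ahr, Cmkor1, Cyp1b1, Cyp2s1, Exoc3, Fmo1, Ghr, Glud1 and Scn4b). In both strains Mawbp, Pomp and Psmb4 were above (3 of 47, 6.38%), and 0 targets were below.

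Psmb4 encodes a beta subunit of the 20S proteasome and Pomp the chaperone that assembles it. Psmb4 stood at 0.63, 1.02 and 0.19 for Han/Wistar and at 0.36, 0.39 and 0.01 for Long-Evans per the authors' deposited table, and was highest at 0.01 µg/kg in both strains. Pomp stood at 0.14, 0.22 and 0.09 for Han/Wistar and at 0.05, 0.18 and 0.40 for Long-Evans per the authors' deposited table. Mawbp, now called Pbld1, stood at 0.33, 0.22 and 0.39 for Han/Wistar and at 0.08, 0.11 and 0.43 for Long-Evans per the authors' deposited table. Pmm1, a phosphomannomutase of glycan synthesis, stood at 0.19, 0.26 and 0.21 for Han/Wistar and at -0.14, 0.01 and 0.56 for Long-Evans per the authors' deposited table. Ghr, the growth hormone receptor, stood at -0.01, -0.11 and -0.15 for Han/Wistar and at -0.17, -0.19 and -0.57 for Long-Evans per the authors' deposited table. These shifts were all under 1 log2 unit except that of Psmb4 in Han/Wistar at 0.01 µg/kg, which left the range.

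The mean of each strain's 3 low-dose groups was set against the mean of its corn oil groups, averaged over strains, in a two-sided exact permutation test with 1120 splits, with Benjamini-Hochberg adjustment over 47 targets. Of these, 5 passed an adjusted p of 0.05 (10.6%; 4 higher, 1 lower), and 15 had an unadjusted p under 0.05. Psmb4 was higher by 0.58 (adjusted exact permutation p = 0.0280), Mawbp by 0.29 (0.0280), Pomp by 0.25 (0.0280) and Pmm1 by 0.34 (0.0336). Ghr was lower, with a difference of -0.20 (adjusted exact permutation p = 0.0315). Of the AHR battery 0 of 11 tested passed, and 4 had an unadjusted p under 0.05. These were Exoc3, Inmt and Fmo1, which were lower, and Nfe2l2, which was higher. Ahrr was not tested because of its missing values. The 3 doses are averaged here, so a rise at 0.1 µg/kg alone is not addressed. Cyp1a1 had a mean difference of 1.83 (exact permutation p = 0.243, adjusted p = 0.408). Exoc3 had a mean difference of -1.20 (adjusted exact permutation p = 0.105) and Mug1 of -0.70 (0.0540), and neither passed.

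None of the 5 calls remained when each group was centred on its median or mean, when the 0.1 µg/kg groups were left out, or without the Long-Evans corn oil group at 96 h or at 240 h. Leaving out groups leaves fewer than 1120 splits, which raises the smallest p that can be reached. A loss of calls without a group can therefore not be read as dependence on that group. The differences kept their sign after centring, at 0.57 and 0.66 for Psmb4 (adjusted exact permutation p = 0.0629 with medians and 0.112 with means) and -0.20 and -0.12 for Ghr (0.0970 and 0.543). Without the Han/Wistar corn oil group at 96 h 3 targets passed.

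**Figure D4:**
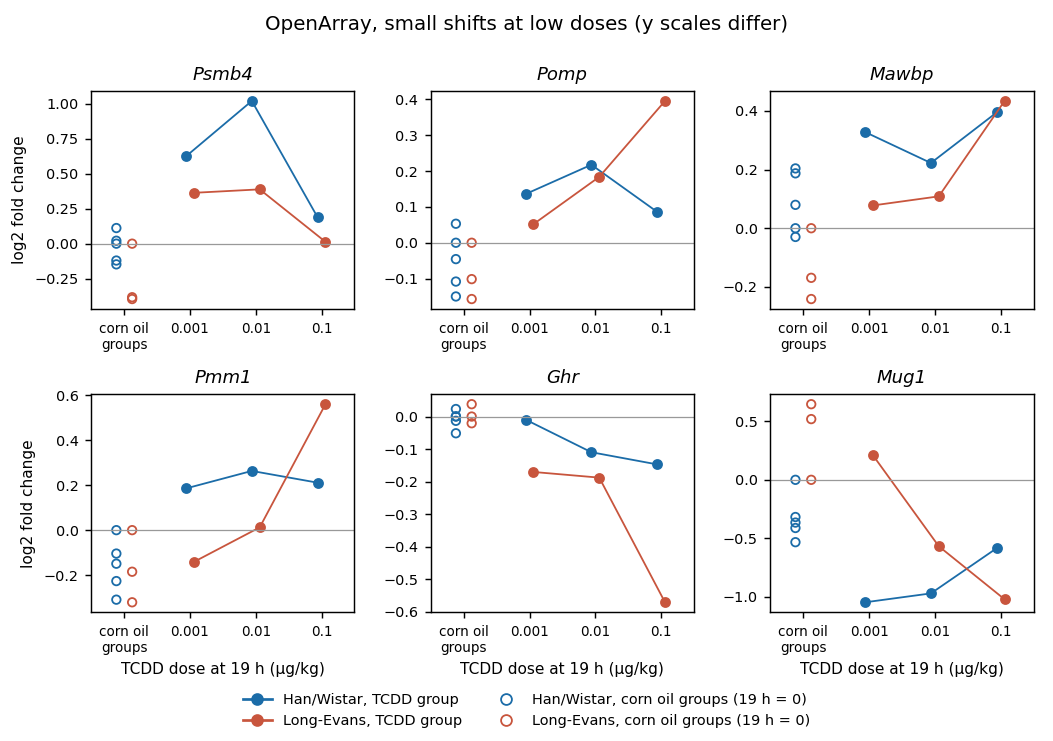
OpenArray log2 fold change (y axis, own scale in each panel) at the low doses (filled points) and in all corn oil groups (open points) for the 5 targets that passed the comparison of low doses with corn oil, and for Mug1. Psmb4, Pomp and Mawbp lie above all corn oil groups of their strain in all 6 groups, and Ghr reaches -0.57 in Long-Evans at 0.1 µg/kg.

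A dose order was tested over corn oil at 19 h and the 3 doses, as the sum over both strains of Spearman's rho, with all 576 orders. Of 47 OpenArray targets 0 passed the adjusted exact permutation test at 0.05 (0%), and 5 had an unadjusted p under 0.05. Ghr and Glud1, the mitochondrial glutamate dehydrogenase, had a lower value at every further dose in both strains (rho -1 in each strain; exact permutation p = 0.00347, the smallest the design allows, adjusted p = 0.0816). Even these 2 perfect orders did not pass, so a single target could not pass by its own dose order. The 0 passes therefore do not show that a dose order was absent. Glud1 stood at -0.17, -0.20 and -0.22 for Han/Wistar and at -0.31, -0.58 and -0.69 for Long-Evans per the authors' deposited table. Cyp1a1 had rho 1.0 for Han/Wistar and 0.8 for Long-Evans (exact permutation p = 0.0243, adjusted p = 0.228), because its Long-Evans value at 0.001 µg/kg was below corn oil. The same p belonged to Mawbp and to Perp, a desmosomal protein of the p53 pathway, which stood at 0.11, 0.22 and 0.38 for Han/Wistar and at 0.18, 0.16 and 0.41 for Long-Evans per the authors' deposited table. With 1 µg/kg as a further group, 6 targets passed: Cyp1a1, Mawbp and Perp with rising and Fmo1, Ghr and Glud1 with falling values.

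The naming rules take every target with a departure or a test pass, so the 17 OpenArray targets left over have none by selection. Over the 6 low-dose groups their values lay between -1.08 (Nrbp2, Han/Wistar, 0.01 µg/kg) and 0.49 (Hagh, Han/Wistar, 0.1 µg/kg) per the authors' deposited table, and 1 value of theirs was at least 1 log2 unit from 0. That value of Nrbp2 was inside the corn oil range. Of the other gene lists, Exoc3 (trafficking) and Psmb4 (proteasome) left the OpenArray range as given above. None of Ern1 and Derl1 (endoplasmic reticulum protein quality control), Lasp1, Sdc1 and Eml4 (cytoskeleton and matrix), Ccbl1 and Glud1 (amino acid enzymes), Uvrag (trafficking) or Fdft1 (sterol synthesis) left it at a low dose.

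The strains were set side by side at the same dose, each relative to its own corn oil group. The differences between strains were not tested. Long-Evans and Han/Wistar were at least 1 log2 unit apart for 6 of 48 targets at 0.001 µg/kg (12.5%), 4 of 48 at 0.01 µg/kg (8.33%) and 3 of 48 at 0.1 µg/kg (6.25%). The same count was 5 of 49 (10.2%) for corn oil at 96 h and 5 of 49 (10.2%) for corn oil at 240 h, so the low-dose shares were near those between corn oil groups. At 0.001 µg/kg Long-Evans was lower for Aldh3a1, Cyp1a1, Cyp1b1, Exoc3 and Scn4b and higher for Mug1. Aldh3a1 and Cyp1b1 were also lower in Long-Evans at 0.01 and 0.1 µg/kg, and in corn oil at 240 h Aldh3a1, Cyp1b1, Scn4b and Ahrr were lower there too. Across the targets the strains' values had a Spearman's rho of 0.04, 0.67 and 0.48 at the 3 doses (48 targets each), 0.92 at 1 µg/kg, and 0.31 and -0.01 for corn oil at 96 and 240 h (49 targets each). Pearson's r was -0.47, 0.69 and 0.77 at the 3 doses, 0.95 at 1 µg/kg, and 0.78 and -0.45 for corn oil at 96 and 240 h. These targets were measured in the same groups and are not independent replicates. For Cyp1a1 and Cyp1a2 at 0.1 µg/kg the strains were 0.57 and 0.13 log2 units apart, with Long-Evans the lower in both. On the 7900HT 25 of 38 targets (65.8%), 15 of 39 (38.5%) and 13 of 37 (35.1%) were at least 1 log2 unit apart, beside 15 of 39 (38.5%) and 24 of 38 (63.2%) for corn oil at 96 and 240 h.

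On the 7900HT, which was used as a check, many more targets left the range, most of them downward in the values as deposited. The counts were 14 of 38 (36.8%), 18 of 39 (46.2%) and 24 of 39 (61.5%) in Han/Wistar, with 2 (5.26%), 3 (7.69%) and 3 (7.69%) above the range and 12 (31.6%), 15 (38.5%) and 21 (53.8%) below it. In Long-Evans they were 18 of 39 (46.2%), 23 of 39 (59%) and 24 of 37 (64.9%), with 10 (25.6%), 4 (10.3%) and 2 (5.41%) above and 8 (20.5%), 19 (48.7%) and 22 (59.5%) below. The median over all targets was itself displaced there, at -1.12, -1.03 and -1.58 for the Han/Wistar groups and -0.12, -1.16 and -1.58 for the Long-Evans groups. The 7900HT targets with 4 rows in the instrument's table and those with 2 rows moved apart: at 0.1 µg/kg in Han/Wistar their medians were 0.41 and -2.02, and at 0.001 µg/kg in Long-Evans 1.93 and -0.52. At 0.001 and 0.01 µg/kg in Han/Wistar the order was the opposite, with -1.97 and -0.71, and -1.65 and -0.72. The corn oil groups also split both ways, with 2.39 and -1.46 at 1.5 h and -1.72 and 0.37 at 96 h in Han/Wistar. With each group centred on its median the Han/Wistar departures were 11 above and 2 below at 0.001 µg/kg, 6 and 7 at 0.01 µg/kg, and 3 and 8 at 0.1 µg/kg. The Long-Evans departures then became 10 above and 9 below, 12 and 5, and 12 and 5, so the downward majority in that strain at 0.01 and 0.1 µg/kg and in Han/Wistar at 0.001 µg/kg turned with the scaling. On the OpenArray the same centring gave 0 above and 0 below, 2 and 0, and 2 and 0 for Han/Wistar, and 0 and 5, 0 and 4, and 4 and 5 for Long-Evans.

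Cyp1a1 stood at -0.23, 1.47 and 8.36 for Han/Wistar and at 5.50, 0.47 and 5.88 for Long-Evans on the 7900HT per the authors' deposited table. It left the corn oil range upward at 0.1 µg/kg in both strains, as on the OpenArray. In Long-Evans it also did so at 0.001 µg/kg, where the OpenArray had it below the range. Cyp1a2 stood at 1.13 for Han/Wistar and 1.10 for Long-Evans at 0.1 µg/kg per the authors' deposited table, close to the OpenArray values, but for Han/Wistar the 7900HT corn oil range of -2.98 to 2.31 enclosed it. Nqo1 was at -0.02 for Long-Evans at 0.1 µg/kg per the authors' deposited table, where the OpenArray had 1.26.

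The downward departures of Aldh3a1, Cyp1a1 and Cyp1b1 at 0.001 µg/kg in Long-Evans did not recur. Aldh3a1 stood at 5.21 and Cyp1b1 at 8.22 on the 7900HT per the authors' deposited table, above the corn oil range, where the OpenArray had -6.10 and -3.11. Cyp1b1 stood at -3.38 and -3.20 for Long-Evans at 0.01 and 0.1 µg/kg per the authors' deposited table, of the same sign as on the OpenArray but inside the 7900HT range. The 7900HT group of Long-Evans at 0.001 µg/kg also had Nqo1 at 3.92, Tiparp at 5.33 and Cyp1a2 at 2.24 per the authors' deposited table. Nqo1, Tiparp, Cyp1a2, Aldh3a1, Cyp1a1 and Cyp1b1 are all targets with 4 rows in the instrument's table. In this group the median was 1.93 over the 14 targets with 4 rows, beside -0.52 over those with 2. Of the 14, 3 were below 0. Ahrr for Han/Wistar at 0.01 µg/kg was at -13.45 per the authors' deposited table against 3.31 on the OpenArray. Exoc3 was below 0 on both instruments in all 6 groups, at -0.71, -0.72 and -2.24 for Han/Wistar and -0.51, -1.16 and -1.58 for Long-Evans on the 7900HT per the authors' deposited table. Of the 25 OpenArray departures 18 had a 7900HT value, and 11 of these had the same sign. With the 1 log2 minimum, 7 also left the 7900HT range on the same side and 5 on the opposite side. The instruments share animals and controls, and 7900HT values were mostly below 0, so a shared negative sign is weak evidence.

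**Figure D5:**
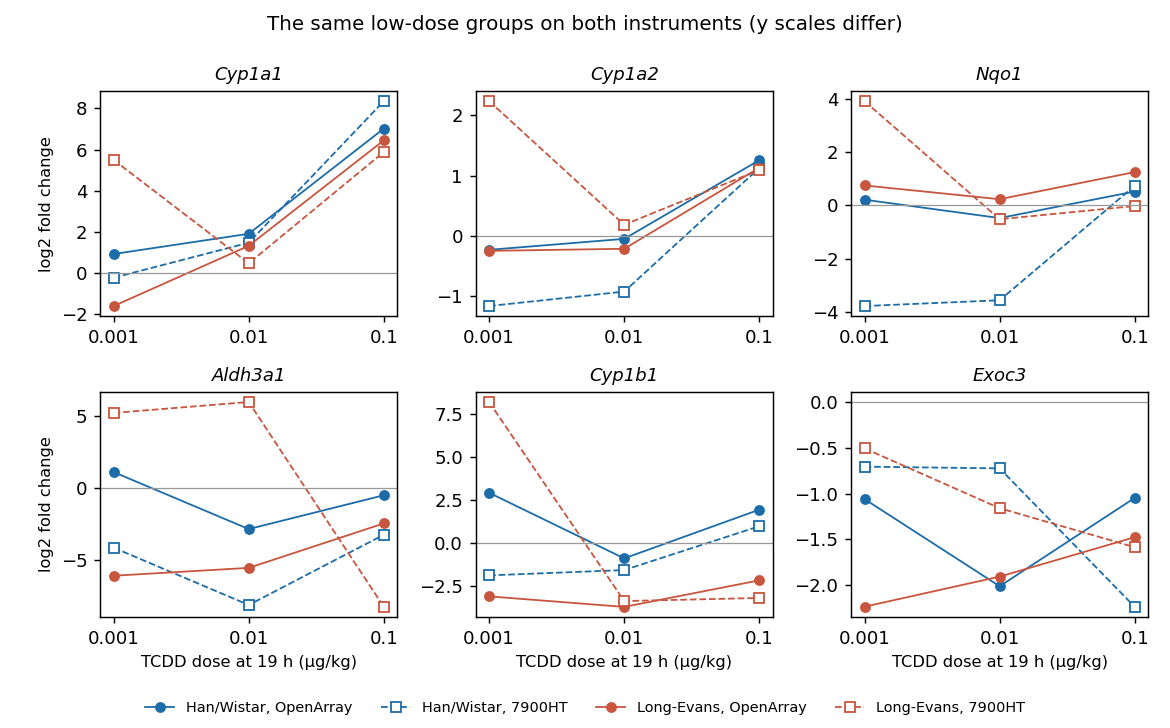
Log2 fold change (y axis, own scale in each panel) at the 3 low doses (x axis) on the OpenArray (filled circles, solid lines) and on the 7900HT (open squares, dashed lines) for 6 targets. Cyp1a1 at 0.1 µg/kg is high on both instruments, 7.02 and 8.36 for Han/Wistar and 6.45 and 5.88 for Long-Evans, whereas Aldh3a1 for Long-Evans at 0.001 µg/kg is -6.10 on the OpenArray and 5.21 on the 7900HT.

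The tests across doses gave calls on the 7900HT that depended on the scaling. In the dose order test 8 of 37 targets passed (21.6%), all lower: Ccbl1, Cmkor1, Exoc3, Ghr, Pde2a, Sdc1, Tpm1 and Uvrag (rho -1 in both strains; adjusted exact permutation p = 0.0161 for each). After centring groups on their median or mean, or after centring targets with 4 and 2 rows apart, 0 passed. As on the OpenArray, a single target could not pass by its own dose order. Against the corn oil groups of all times 14 of 37 passed (37.8%; 1 higher, 13 lower). Cmkor1 differed by -2.81 (adjusted exact permutation p = 0.00944), Sdc1, the proteoglycan syndecan 1, by -2.63 (0.00944), Ghr by -2.84 (0.00944) and Derl1, a membrane protein of endoplasmic reticulum protein disposal, by 2.97 (0.00944). The remaining calls were Ccbl1, Exoc3, Fmo1, Glud1, Mawbp, Pde2a, Perp, Srxn1, Tpm1 and Uvrag, with differences from -2.23 to -1.25. With mean centring 3 targets passed, Cmkor1 and Sdc1 lower and Derl1 higher, with median centring 8 (5 higher, 3 lower), and with the row sets centred apart 11 (7 higher, 4 lower). Exoc3 and Ccbl1 turned sign or reached 0 with the row sets centred apart.

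Ghr was lower on both instruments, at -0.20 on the OpenArray and -2.84 on the 7900HT, and the sizes differ widely. Mawbp was higher on the OpenArray (0.29) and lower on the 7900HT (-1.35, adjusted exact permutation p = 0.0356). Psmb4 was likewise higher by 0.58 on the OpenArray and had a difference of -0.85 on the 7900HT, which did not pass. Derl1, the 1 target higher on the 7900HT, lay between -0.12 and 0.23 in all 6 OpenArray groups per the authors' deposited table.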

How the data were processed

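Per the labels' protocols, complementary DNA from liver total RNA was amplified by real-time PCR, either on OpenArray plates or on a 7900HT. The deposited tables hold 1 log2 fold change of the authors for each gene and group, with the strain's own 19 h corn oil rats as the baseline. No header states the log base. The submitters' processing notes name R 2.12.2. Which reference genes were used, and how rats were averaged, is not given in the sources used here. The 150 OpenArray and 154 7900HT columns of raw cycle values carry codes that match no label, and none was used. From those tables the deposited gene and assay names (unit other) and the number of rows per gene were read. Without values mapped to rats, the depth of each group is its number of rats. A p-value is the share of rearrangements of group values within strains that give a statistic at least as large. The spread between rats does not enter it.

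Groups came from the labels. An ending on 4 gene names was removed, and 50 of 50 names were found in the RefSeq table, 3 of them by an older symbol. Promoter windows were found for 43. Departures from the corn oil range (at least 1 log2 unit) carry no test. The dose order test and the comparison with corn oil groups of all times were two-sided exact permutation tests within strains, summed or averaged over strains, in Python 3.11.15 with scipy 1.17.1, numpy 2.4.6 and pandas 2.3.3, and both scripts were tested on simulated data. Named are targets that left the range on the OpenArray, that passed a test, that belong to the AHR lists, or that were among the 3 highest or lowest at 0.001 µg/kg, 33 in all. The groups, gene lists and rules were chosen with earlier results of these data known. Alternatives changed the fold minimum, the centring of groups, the corn oil groups, the doses, the statistic and the adjustment. The strain comparison with another scaling or fold minimum, Cyp1a1 without single corn oil groups and the tests with row sets centred apart were added after the data were seen.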

Additional observations from a re-analysis of the deposited data

How the results depend on the processing

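The numbers of targets that left the corn oil range at 0.001, 0.01 and 0.1 µg/kg moved with the minimum of 1 log2 unit. With a minimum of 2 they were 0, 1 and 1 for Han/Wistar on the OpenArray and 3, 2 and 3 for Long-Evans. On the 7900HT they were 8 in Han/Wistar at 0.001 µg/kg, and for Long-Evans 10 at 0.01 µg/kg and 11 at 0.1 µg/kg. Strain differences of at least 2 log2 units numbered 1 at 0.1 µg/kg on the OpenArray, and 6 and 7 at 0.01 and 0.1 µg/kg on the 7900HT. With no minimum the counts were 10, 16 and 16 and 35, 36 and 37 on the OpenArray, and the 7900HT count for Long-Evans at 0.001 µg/kg was 29. Without the corn oil group at 1.5 h the Han/Wistar OpenArray counts were 2 at 0.001 µg/kg and 5 at 0.01 µg/kg, and without that at 240 h 2 at 0.001 µg/kg. With the range of both strains together the 7900HT count in Long-Evans at 0.01 µg/kg was 14.

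Centring groups on the mean gave 0 departures in Han/Wistar at 0.001 µg/kg and 0 passes against corn oil on the OpenArray. On the 7900HT it gave 11 and 14 departures in Han/Wistar at 0.01 and 0.1 µg/kg, 15 in Long-Evans at 0.01 µg/kg, 0 dose order passes, 3 passes against corn oil and 21 strain differences at 0.1 µg/kg. Centring on the median gave 0 and 0 on the OpenArray for the same results, and on the 7900HT 11 departures in Han/Wistar at 0.1 µg/kg, 0 dose order passes and 8 against corn oil. With the 7900HT row sets centred apart, 15 and 14 targets left the Long-Evans range at 0.01 and 0.1 µg/kg and 0 passed the dose order test. With row sets apart the summed rho of Ccbl1 was 0.00 and of Exoc3 0.40 (0.20 with median centring), and their differences from corn oil were 0.061 and 0.018, all reversed in sign or at 0. With the slope 18 targets passed on the 7900HT, and with 1 µg/kg added 6 on the OpenArray.

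With both instruments adjusted together, 2 OpenArray targets passed the dose order test, both lower, and 8 the comparison with corn oil (4 higher, 4 lower). Without the 0.1 µg/kg groups 0 passed the latter on the OpenArray and 4 on the 7900HT. Without the Han/Wistar corn oil group at 96 h 3 passed on the OpenArray, and without the Long-Evans group at 96 h 0, or at 240 h 0. Fewer groups also leave fewer splits, so these losses cannot be read as dependence on the groups left out. Under 104 further combinations of a result and an alternative the count stayed within 1.5 times. The cause of these moves was not tested.

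No paired analysis was possible because the fold change tables hold 1 value per group and the codes of the raw cycle columns match no sample label, and leaving out single rats was not run for the same reason. With 1 value for each group of 3 to 7 samples, the precision of a single value is unknown.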
